A study of Arabidopsis thaliana with 24 samples.

Results

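The 10 genes described here belong to the flavonoid and anthocyanin pathway of Arabidopsis thaliana. They run from its first committed step to a glycosylation of the pigment and do not include every step between. They were taken by gene identifier from the 32833 genes of each deposited table. They are the 4 early enzymes CHS (AT5G13930), CHI (AT3G55120), F3H (AT3G51240) and F3'H (AT5G07990), the flavonol synthase FLS1 (AT5G08640), and 3 late enzymes of the anthocyanin branch, DFR (AT5G42800), LDOX (AT4G22880) and UF3GT (AT5G54060). The transcription factors PAP1 (AT1G56650) and TT8 (AT4G09820) complete the set. Transcript levels were measured by RNA sequencing in 24 libraries from whole seedlings of Columbia 0, in 8 groups of 3 libraries. The treated groups were seedlings labelled nrp1 nrp2, FyPP3DN, nrp1 nrp2 FyPP3DN and wild type (WT) that spent 24 h with 5 µM abscisic acid (ABA, a hormone of drought and seed dormancy). The untreated groups were seedlings of the same genotypes that spent the same 24 h without ABA. Seedlings were 5 days old before treatment by the sample labels and 6 days old by the design text. FYPP3 encodes a catalytic subunit of protein phosphatase PP6, FyPP3DN is its dominant-negative version, and no promoter for it is stated in the labels. The labels give no loci for nrp1 and nrp2 and do not say that replicates were grown separately, so the p-values cover only the variation among these libraries, which may be technical.

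Chalcone synthase (CHS) condenses a phenylpropanoid starter into the first flavonoid, chalcone isomerase (CHI) closes its central ring, and the hydroxylases F3H and F3'H decorate it to give dihydroflavonols. At this branch point, flavonol synthase (FLS1) makes flavonols, which are ultraviolet screens, and dihydroflavonol reductase (DFR) sends the same substrate towards anthocyanins. Leucoanthocyanidin dioxygenase (LDOX, also called anthocyanidin synthase) makes the coloured anthocyanidin, and UF3GT adds a xylose to its glucoside. PAP1 is a MYB factor and TT8 a bHLH factor. Together with the WD40 protein TTG1 they form a complex that activates the late genes, whereas the related factors MYB11, MYB12 and MYB111 activate the early genes and FLS1.

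Values are FPKM, that is, fragments counted on a gene relative to its exon length and to the library's total, so that levels of different genes are compared per length. Depth was 16.6 to 29.1 M fragments per library. Plastid-encoded genes took 9.61% to 18.8% of all FPKM in 8 libraries, 1 per group and called plastid-rich, and 0.0252% to 0.0877% in the other 16, called plastid-poor. FYPP3 itself stood at 12.8 to 13.5 FPKM in the 3 untreated libraries labelled nrp1 nrp2 FyPP3DN and at 34.5 to 85.2 in untreated FyPP3DN, beside 12.7 to 18.3 in untreated WT. The combination is referred to by its label only, since its FYPP3 level lay in the WT range. With ABA, FYPP3 fell in FyPP3DN (−0.99 ± 0.20 on the log2(FPKM + 1) scale, SE, limma, adjusted p = 0.0040). Treated FyPP3DN was not called above treated WT for FYPP3 (0.61 ± 0.20, adjusted p = 0.21). AT3G27090, a gene of the DCD-domain pair that carries the NRP name, stood at 18.7 to 21.1 FPKM in untreated nrp1 nrp2 and at 65.8 to 69.2 in untreated WT. Its partner AT5G42050 stood at 44.0 to 69.7 in untreated nrp1 nrp2 and at 29.6 to 31.7 in untreated WT.

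The 250 bases before the start of each member were read from the TAIR10.1 genome of RefSeq. The regions of the 3 late enzymes and PAP1, whose transcripts rose with ABA as described below, are printed with those of CHS and FLS1, which were not called. DFR lies at chr5:17166033-17166282 (minus strand), LDOX at chr4:12006210-12006459 (minus), UF3GT at chr5:21938397-21938646 (minus), PAP1 at chr1:21235293-21235542 (minus), CHS at chr5:4488226-4488475 (plus) and FLS1 at chr5:2803583-2803832 (plus). Each is written 5′ to 3′ on the strand of its gene, so the last base is next to the start. Capitals mark the palindrome CACGTG (G-box, read by bZIP and bHLH factors) and ACCNACC (AC element, read by MYB factors).
DFR: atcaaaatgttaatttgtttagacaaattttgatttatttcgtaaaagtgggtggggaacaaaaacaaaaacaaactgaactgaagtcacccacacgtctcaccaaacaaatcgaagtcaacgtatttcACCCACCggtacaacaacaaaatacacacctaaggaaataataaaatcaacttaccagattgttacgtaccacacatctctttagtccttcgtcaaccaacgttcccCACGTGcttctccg
LDOX: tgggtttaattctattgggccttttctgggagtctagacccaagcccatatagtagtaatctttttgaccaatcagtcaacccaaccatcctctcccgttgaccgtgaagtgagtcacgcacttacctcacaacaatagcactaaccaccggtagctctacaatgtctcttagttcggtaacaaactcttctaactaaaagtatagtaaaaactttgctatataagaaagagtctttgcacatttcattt
UF3GT: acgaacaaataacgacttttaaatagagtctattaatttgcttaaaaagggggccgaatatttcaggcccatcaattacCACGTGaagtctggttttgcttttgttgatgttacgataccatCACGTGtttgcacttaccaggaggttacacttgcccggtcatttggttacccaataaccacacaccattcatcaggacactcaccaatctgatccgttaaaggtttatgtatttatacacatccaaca
PAP1: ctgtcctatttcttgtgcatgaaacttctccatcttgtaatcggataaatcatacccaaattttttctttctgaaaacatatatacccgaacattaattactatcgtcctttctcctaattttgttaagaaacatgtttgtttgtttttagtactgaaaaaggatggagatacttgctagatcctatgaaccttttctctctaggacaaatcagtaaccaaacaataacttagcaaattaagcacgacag
CHS: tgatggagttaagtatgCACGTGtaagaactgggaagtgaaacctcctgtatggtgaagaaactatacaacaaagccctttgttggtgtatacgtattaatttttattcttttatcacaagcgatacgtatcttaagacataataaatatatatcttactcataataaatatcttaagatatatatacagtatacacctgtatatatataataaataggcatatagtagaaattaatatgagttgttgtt
FLS1: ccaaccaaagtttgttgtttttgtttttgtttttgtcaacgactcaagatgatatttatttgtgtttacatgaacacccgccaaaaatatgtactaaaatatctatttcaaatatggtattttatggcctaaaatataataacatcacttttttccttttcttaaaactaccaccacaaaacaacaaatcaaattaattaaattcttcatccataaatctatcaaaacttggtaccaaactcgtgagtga
Both strands were searched. A G-box stood in 4 of the 10 members, at −14 in DFR, at −171 and −128 in UF3GT, at −233 in CHS and at −249 in F3H, and in 6.49% of all 27443 promoters of this length. The AC element stood in 2 members, at −121 in DFR and at −114 in TT8, and in 6.10% of all promoters. The ABA-responsive element ACGTGNC stood in F3H and TT8 and in 8.57% of all promoters. The bHLH motif CANNTG, which includes every G-box, stood in 7 of 10 members and in 55.3% of promoters. LDOX, PAP1 and FLS1 held none of these 4 motifs in this window, and CHS held a G-box as DFR and UF3GT did. A match is a string of letters and not a measured site.

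The pathway was transcribed unevenly. CHS was the most abundant member, at 35.5 to 82.8 FPKM in the 12 libraries with ABA (median 53.3) and 38.8 to 140 in the 12 without (median 77.9). FLS1 followed at medians of 18.3 with ABA and 18.6 without, CHI at 14.0 and 13.7, and F3'H at 3.36 and 3.81. The late enzymes and PAP1 were scarce in untreated seedlings. Their untreated medians were 0.29 FPKM for DFR, 0.755 for LDOX, 0.185 for UF3GT and 0.195 for PAP1, and in untreated libraries 1 to 19 fragments lay behind DFR, 5 to 42 behind LDOX, 1 to 12 behind UF3GT and 0 to 16 behind PAP1. TT8 was below 1 FPKM in all 24 libraries.

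**Figure D1:**
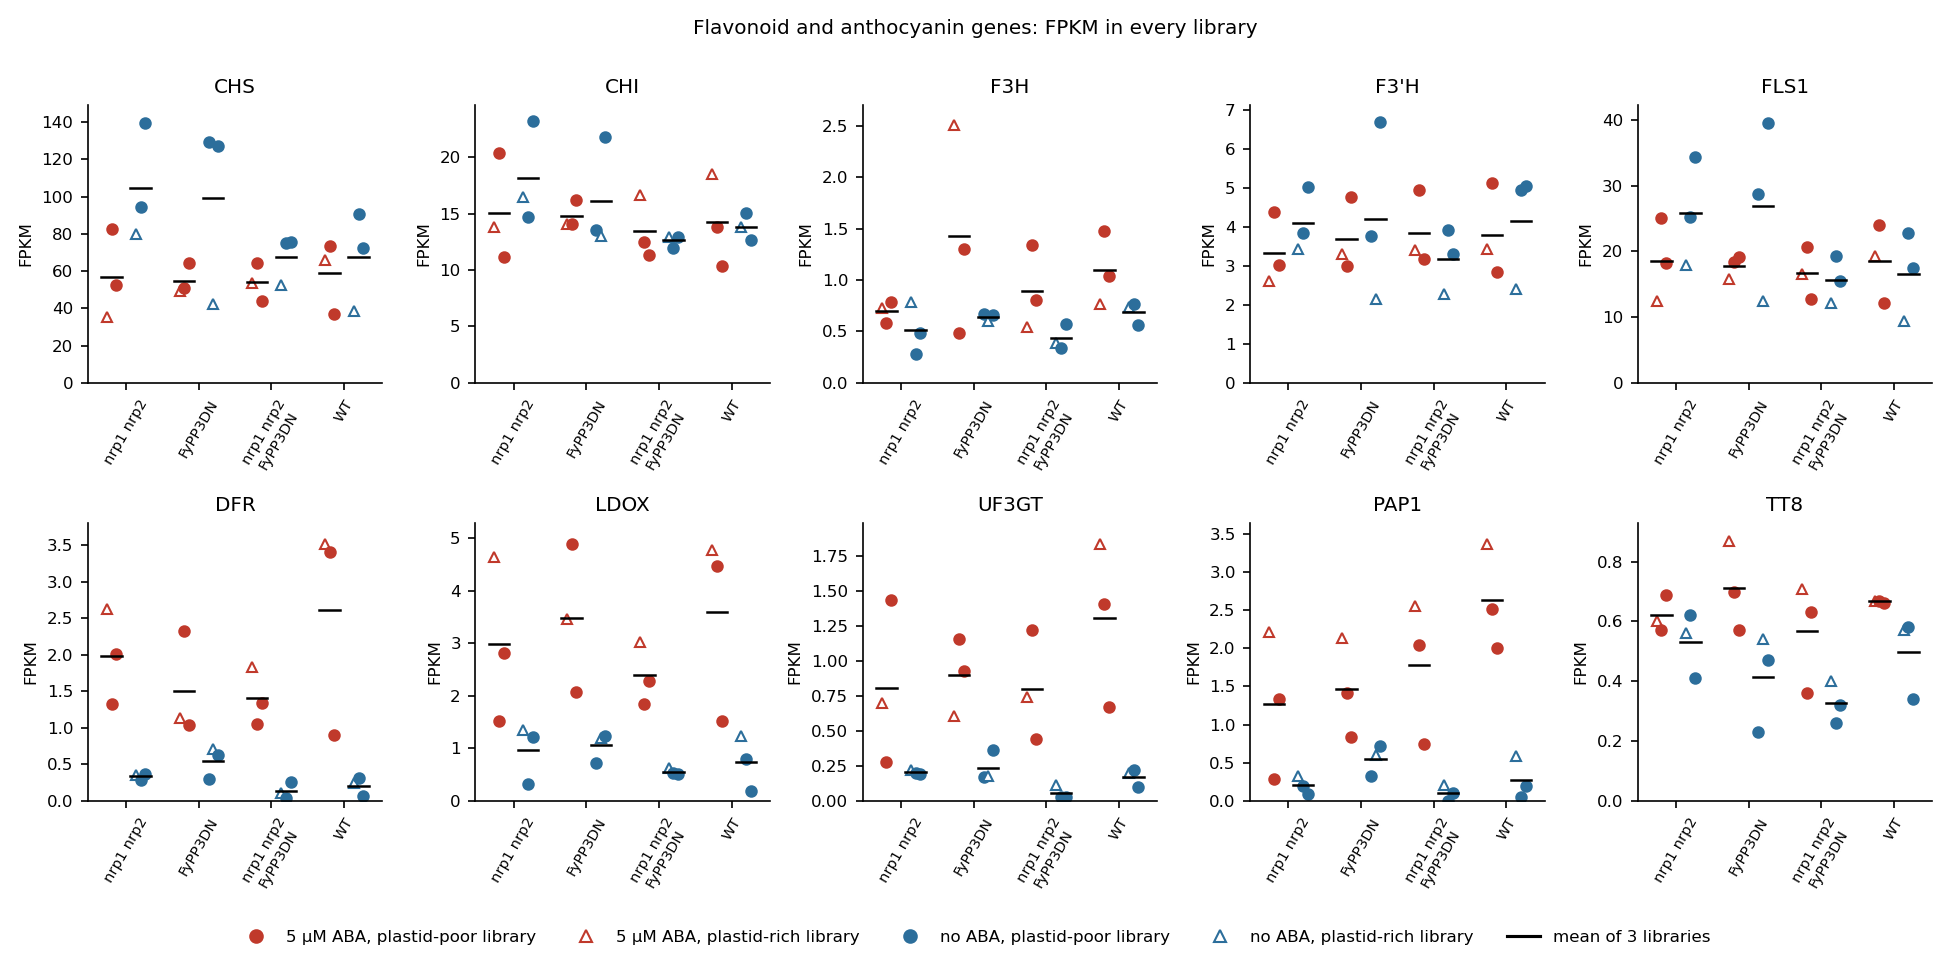
FPKM of the 10 members (vertical axes, linear from 0) in every library, by genotype, with 5 µM ABA in red left of no ABA in blue. Circles are plastid-poor libraries, open triangles plastid-rich ones and black bars means of 3 libraries. DFR and LDOX were higher in all 12 libraries with ABA than in any without, whereas the points of CHI, F3'H and FLS1 overlap.

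The late enzymes rose with ABA. DFR had 2.63, 1.33 and 2.01 FPKM in ABA-treated nrp1 nrp2, against 0.35, 0.28 and 0.37 in untreated nrp1 nrp2. In FyPP3DN it had 1.14, 2.33 and 1.04 with ABA, against 0.3, 0.71 and 0.62 without. Libraries with the label nrp1 nrp2 FyPP3DN had 1.83, 1.05 and 1.34 with ABA, against 0.1, 0.04 and 0.25 without, and WT had 3.52, 3.41 and 0.9 with ABA, against 0.24, 0.31 and 0.07 without. The ranges did not overlap in any genotype, and the lowest of all 12 treated libraries (0.9, WT replicate 3) was above the highest of all 12 untreated ones (0.71, FyPP3DN replicate 2). The mean level was 1.88 ± 0.92 FPKM with ABA and 0.303 ± 0.201 without (SD, n = 12 each), a ratio of 6.19. On the log2(FPKM + 1) scale used for testing, which understates changes of genes this low, the mean difference over the 4 genotypes was 1.09 ± 0.13 (SE, limma, adjusted p = 1.9e-06), and it was 2.33 with a pseudocount of 0.1 in place of 1.

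LDOX had the same pattern at a higher level. It had 4.64, 1.52 and 2.82 FPKM in treated nrp1 nrp2 against 1.35, 0.31 and 1.22 in untreated nrp1 nrp2, and 3.46, 4.9 and 2.07 in treated FyPP3DN against 0.72, 1.2 and 1.24 in untreated FyPP3DN. The libraries labelled nrp1 nrp2 FyPP3DN had 3.03, 1.85 and 2.29 with ABA against 0.63, 0.53 and 0.5 without, and WT had 4.78, 4.48 and 1.52 with ABA against 1.23, 0.79 and 0.19 without. All 12 treated libraries, at 1.52 or more, again lay above all 12 untreated ones, at 1.35 or less. Among all genes tested, 1.55% were higher in all 12 treated libraries than in any untreated one. Among the 26593 genes taken without a filter on low values, the share was 1.16%. The mean log2 difference over genotypes was 1.14 ± 0.17 (adjusted p = 2.4e-05), with means of 3.11 ± 1.31 FPKM with ABA and 0.826 ± 0.407 without.

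UF3GT, the last of the late enzymes here, averaged 0.953 ± 0.464 FPKM with ABA and 0.168 ± 0.091 without (SD, n = 12 each), a ratio of 5.69. Treated libraries had 0.28 to 1.44 in nrp1 nrp2, 0.61 to 1.16 in FyPP3DN, 0.44 to 1.22 in the labelled combination and 0.67 to 1.84 in WT. The untreated libraries of the same genotypes had 0.19 to 0.22, 0.17 to 0.36, 0.03 to 0.11 and 0.1 to 0.22. The groups did not overlap within any genotype, and 11 of 12 treated libraries exceeded every untreated one. The treated library that did not was nrp1 nrp2 replicate 2, at 0.28. The share of all genes that separate within every genotype, as DFR, LDOX and UF3GT did, was not counted. How unusual that separation is among all genes is therefore not known. The mean log2 difference was 0.71 ± 0.11 (adjusted p = 3.4e-05).

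PAP1, the MYB activator of these late genes, moved with them. It had 2.21, 0.28 and 1.33 FPKM in treated nrp1 nrp2 against 0.32, 0.19 and 0.09 in untreated nrp1 nrp2, and 2.14, 1.42 and 0.84 in treated FyPP3DN against 0.33, 0.6 and 0.72 in untreated FyPP3DN. The libraries labelled nrp1 nrp2 FyPP3DN had 2.55, 2.05 and 0.75 with ABA against 0.2, 0 and 0.1 without, and WT had 3.37, 2.52 and 2.01 with ABA against 0.59, 0.05 and 0.19 without. Only the nrp1 nrp2 groups overlapped, through the same treated replicate 2. The mean log2 difference was 1.07 ± 0.15 (adjusted p = 9.6e-06), and PAP1 was 6.35 times as high with ABA as without over the 12 libraries of each. TT8, the bHLH partner, had 0.36 to 0.87 FPKM with ABA and 0.23 to 0.62 without. It did not reach 1 FPKM anywhere, and in a fit without the filter on low values its mean log2 difference was 0.19 (adjusted p = 0.0076).

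The early enzymes and FLS1 did not follow. CHI had 10.4 to 20.4 FPKM with ABA and 11.98 to 23.3 without, and its mean log2 difference of −0.07 had a 95% interval of −0.30 to 0.16. F3'H had 2.62 to 5.13 with ABA and 2.15 to 6.7 without, with a difference of −0.04 (−0.34 to 0.25). FLS1 had 12.2 to 25.0 with ABA and 9.42 to 39.5 without, with a difference of −0.16 (−0.54 to 0.22). In none of the 3 were treated and untreated libraries separated. CHS averaged 56.2 ± 14.4 FPKM with ABA and 84.8 ± 33.3 without (SD, n = 12 each), and its difference of −0.52 ± 0.20 missed the threshold (adjusted p = 0.059).

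The library type moved with the CHS value. In the 8 plastid-poor libraries with ABA, CHS had 36.8 to 82.8 FPKM against 72.5 to 140 in the 8 without, and it was lower there (log2 −0.76, adjusted p = 0.0035). In the plastid-rich libraries it had 35.5 to 65.9 in the 4 with ABA and 38.8 to 80.2 in the 4 without. CHS was also called lower with the library type as a block (adjusted p = 0.014) and with median-of-ratios scaling (0.045), and without any of WT untreated replicate 1 (0.023), FyPP3DN untreated replicate 2 (0.0054), WT treated replicate 2 (0.049) and nrp1 nrp2 treated replicate 2 (0.028). It was not called by limma with replicate number as a block (adjusted p = 0.059) or a pseudocount of 0.1 (0.060). Quantile normalization (0.065) and fitting only the groups compared (0.059) did not give a call either.

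F3H needs care. It stood at 0.48 to 2.51 FPKM with ABA and 0.28 to 0.79 without, far below the enzymes on either side of it in the pathway. Of its 1508 exon bases, 1415 (93.8%) lie opposite AT3G51238, a long noncoding RNA on the other strand (chr3:19025110-19026779, 0 to 0.9 FPKM), and no source used here says whether counting used strand. The 561 protein-coding genes with at least 90% of their exon bases shared with another gene on either strand had a median FPKM of 0, and 94.1% of them averaged under 1, beside a median of 3.58 and 37.6% for the 19821 genes that share none. The 7062 genes in between had a higher median, 7.32, and 22.5% of them averaged under 1. Reads of F3H and of the noncoding RNA cannot be told apart here, and the level of F3H is uncertain. Its mean log2 difference was 0.33 ± 0.11 (adjusted p = 0.035), and the call was lost on leaving out any 1 of 10 libraries (highest adjusted p = 0.072).

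DFR, UF3GT, PAP1 and F3H passed the filter on low values (1 FPKM in 3 libraries) only through treated libraries, and TT8 failed it, so counts over the members come from the fit without that filter. In the mean ABA response, 6 of 10 members were called and all 6 were higher with ABA, where 19.4% of all 26593 genes were called in either direction. With the filter it was 5 of 9, where 24.3% of 19500 genes were called. The values named here are from the fit with the filter. In nrp1 nrp2 it was DFR alone, 1 of 10 (log2 1.14 ± 0.26, adjusted p = 0.0093, background 4.51%, or 6.02% with the filter). In FyPP3DN limma called 0 of 10 (background 4.51%, or 5.95% with the filter), although 6 had an unadjusted p under 0.05. There LDOX had 1.08 ± 0.33 (adjusted p = 0.060), DFR 0.67 ± 0.26 (0.16), UF3GT 0.61 ± 0.21 (0.11) and PAP1 0.64 ± 0.29 (0.24). With library type as a block, LDOX was called in FyPP3DN (adjusted p = 0.017), and LDOX (0.030) and PAP1 (0.023) were called beside DFR in nrp1 nrp2. In the labelled combination 3 of 10 were called (background 8.25%), namely DFR (1.08, adjusted p = 0.0088), UF3GT (0.75, 0.026) and PAP1 (1.28, 0.0052), and with the filter also LDOX (1.11, 0.034, background 11.4%). In WT 4 of 10 were called (background 5.79%, or 7.70% with the filter), namely DFR (log2 1.48 ± 0.26, adjusted p = 0.00084), LDOX (1.36 ± 0.33, 0.013), UF3GT (0.94 ± 0.21, 0.0073) and PAP1 (1.51 ± 0.29, 0.0017).

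**Figure D2:**
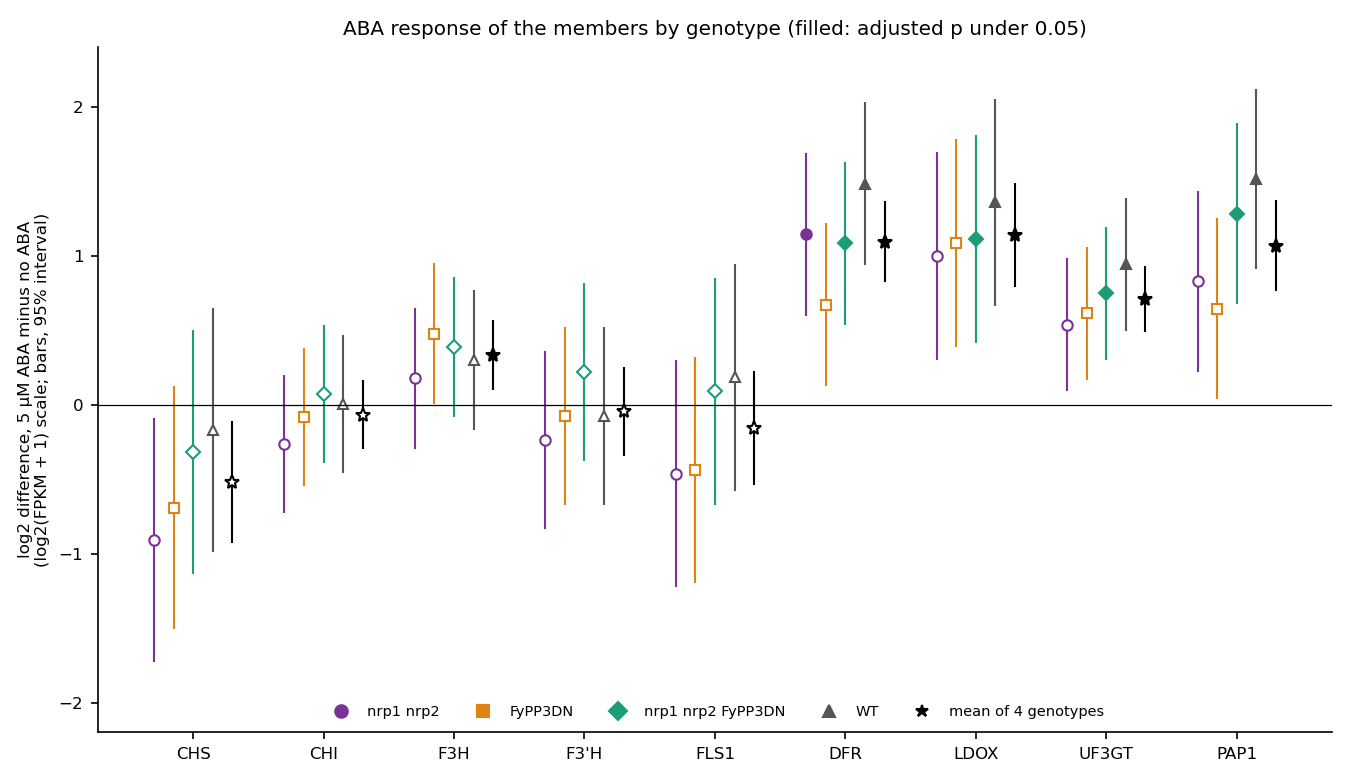
Log2 difference between 5 µM ABA and no ABA (vertical axis, log2(FPKM + 1) scale) for the 9 members that passed the filter, by genotype and as the mean of 4 genotypes (stars). Bars are 95% intervals and filled symbols have an adjusted p under 0.05. The mean is 0.71 to 1.14 for DFR, LDOX, UF3GT and PAP1, and its interval spans 0 for CHI, F3'H and FLS1.

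Single libraries decided several of these calls within a genotype. In nrp1 nrp2, DFR was not called without treated replicate 1 (adjusted p = 0.062), and without treated replicate 2 the count was 4, with LDOX (0.033), PAP1 (0.011) and UF3GT (0.043) added. In FyPP3DN, 1 member was called without untreated replicate 2 (CHS, lower, 0.041), treated replicate 2 (F3H, 0.032) or treated replicate 3 (LDOX, 0.030). In the labelled combination, LDOX was not called without any 1 of the 6 libraries (highest 0.14), UF3GT without 5 of them (highest 0.15) and DFR without treated replicate 1 (0.056). In WT, LDOX was not called without untreated replicate 3 (adjusted p = 0.095), treated replicate 1 (0.084) or treated replicate 2 (0.074), and UF3GT was not called without treated replicate 1 (0.060). The mean responses of DFR, LDOX, UF3GT and PAP1 were called in all 24 fits with 1 library left out.

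Treated nrp1 nrp2 replicate 2 stood apart. It was the lowest treated library for UF3GT, PAP1, GSTF12 and the acyltransferase 5MAT, and the highest treated one for CHS (82.8 FPKM), CHI (20.4) and FLS1 (25.0). Not every member was at an extreme in it. DFR had 1.33 FPKM, above the lowest treated value (0.9), and LDOX tied with treated WT replicate 3 at 1.52. F3'H had 4.38, below the 5.13 of treated WT replicate 2. Treated nrp1 nrp2 replicate 2 had the largest sum of the 7 root hair markers of all 24 libraries (40.8 FPKM, against 4.72 in the lowest treated library). Its sum of the 9 root tissue markers was the second largest (72.8). Its sum of 8 leaf photosynthesis genes (43928 FPKM) ranked 15 of 24, counted from the lowest. Whether the share of root in this library bears on these genes was not tested. In whole seedlings, fewer cells of a type and less RNA per cell cannot be told apart.

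The plastid-rich and plastid-poor libraries were balanced over the groups. Within groups, the plastid-rich libraries were lower in CHS (log2 −0.55, adjusted p = 0.012), F3'H (−0.42, 0.0080) and FLS1 (−0.54, 0.0069) and higher in LDOX (0.41, 0.033) and PAP1 (0.44, 0.0064), where 41.5% of all genes were called. The root genes PIN2 (−1.15), CASP1 (−0.89) and EXPA7 (−0.86) were lower in them too. Root markers did not all move this way. WOX5 was higher in the plastid-rich libraries (0.38, adjusted p = 0.00048), and MYB36 (−0.16, 0.33) and RSL4 (−0.17, 0.32) were not called. DFR had 1.14 to 3.52 FPKM in the 4 plastid-rich libraries with ABA against 0.1 to 0.71 in the 4 without, and 0.9 to 3.41 in the 8 plastid-poor ones with ABA against 0.04 to 0.62 in the 8 without. LDOX likewise did not overlap in either type, at 3.03 to 4.78 against 0.63 to 1.35 in plastid-rich libraries and 1.52 to 4.9 against 0.19 to 1.24 in plastid-poor ones. The mean responses of DFR (1.02, adjusted p = 0.0010), LDOX (1.09, 0.0021), UF3GT (0.71, 0.0044) and PAP1 (0.94, 0.00079) were called in the plastid-poor libraries alone. Within genotypes, the plastid-poor libraries alone gave 0 calls in nrp1 nrp2 and in FyPP3DN, 1 in the labelled combination (PAP1) and 2 in WT (DFR at an adjusted p of 0.050, and PAP1).

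Genotype was then compared at each treatment. Limma called 0 of 9 members tested between nrp1 nrp2 and WT without ABA (0 at an unadjusted p under 0.05, background 0.0923%) and 0 with ABA (1 unadjusted, 0.0667%). It called 0 between FyPP3DN and WT without ABA (0 unadjusted, 0.579%) and 0 with ABA (0 unadjusted, 0.892%). It called 0 between the labelled combination and WT without ABA (0 unadjusted, 0.0821%) and with ABA (0 unadjusted, 0.0872%), and 0 between the combination and nrp1 nrp2 without ABA (0 unadjusted, 0.0462%) and with ABA (0 unadjusted, 0.0103%). Without the filter the count was 0 of 10 in each of these comparisons, where the share of all genes called was 0.0902% without and 0.0752% with ABA for nrp1 nrp2, 0.605% and 0.718% for FyPP3DN, 0.079% at both for the combination against WT, and 0.0226% and 0.00752% for the combination against nrp1 nrp2. The late genes were highest on average in treated WT for DFR, LDOX, UF3GT and PAP1, at 2.61 ± 1.48, 3.59 ± 1.80, 1.31 ± 0.59 and 2.63 ± 0.69 FPKM (SD, n = 3). For LDOX that order is slight. Treated FyPP3DN had 3.477 ± 1.415 FPKM, and its log2 difference from treated WT was 0.0058. PAP1 had 1.27 ± 0.97 FPKM in treated nrp1 nrp2, and its log2 difference from WT was −0.76 with a 95% interval of −1.36 to −0.15 (unadjusted p = 0.017 and adjusted p = 1, limma). With ABA, the difference of DFR from WT had intervals of −0.74 to 0.36 in nrp1 nrp2, −1.01 to 0.088 in FyPP3DN and −1.04 to 0.055 in the labelled combination.

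The ABA responses themselves were not shown to differ between genotypes. For the response of nrp1 nrp2 minus that of WT, 0 of 9 members were called by limma (0 unadjusted, background 0%), and likewise for the labelled combination (0 unadjusted, 0%). For FyPP3DN minus WT it was also 0 of 9 (background 0.144%, or 0.109% without the filter), with 2 members at an unadjusted p under 0.05. These were DFR (log2 −0.81 ± 0.37, 95% interval −1.59 to −0.036, adjusted p = 0.60) and PAP1 (−0.87 ± 0.41, −1.73 to −0.012, adjusted p = 0.61). Untreated FyPP3DN had the highest untreated means of DFR (0.543 ± 0.216 FPKM), LDOX (1.05 ± 0.29), UF3GT (0.237 ± 0.107) and PAP1 (0.55 ± 0.20), and the untreated labelled combination the lowest (0.13 ± 0.11, 0.553 ± 0.068, 0.057 ± 0.046 and 0.1 ± 0.1), with n = 3 each. These untreated groups were not called different from untreated WT (lowest adjusted p = 0.64 among these 4 genes).

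At the branch point, the balance of transcripts moved towards DFR. The ratio of FLS1 to DFR in FPKM was 4.74 to 19.7 in the 12 treated libraries (median 9.31) and 17.6 to 482 in the 12 untreated ones (median 81.8). FLS1 thus remained the more abundant transcript in every library, and the ranges of the ratio overlapped slightly. The highest ratios rest on 1 to 4 DFR fragments. This ratio was chosen after the values were seen.

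Across the 24 libraries the members fell into groups that varied together, given here as Pearson correlations of log2(FPKM + 1) without a test, since libraries share group, type and treatment. CHS and FLS1 correlated at 0.91 (0.96 for deviations from group means), F3'H and FLS1 at 0.83 (0.92) and CHS and F3'H at 0.75 (0.88). DFR correlated with LDOX at 0.94 (0.85 within groups), with UF3GT at 0.88 (0.56) and with PAP1 at 0.85 (0.46). Between the branches, DFR and FLS1 correlated at −0.03 (0.05). CHI followed CHS, F3'H and FLS1 less closely (0.49 to 0.56 within groups), and F3H had −0.14 to 0.15 with these 4 genes. CHS, F3'H and FLS1 thus varied together among replicates, and DFR and FLS1 did not. Deviations from group means still hold the library type, since each group has 1 plastid-rich library. CHS, F3'H and FLS1 were called lower in that type and DFR was not called. The part of library type in these correlations was not tested.

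**Figure D3:**
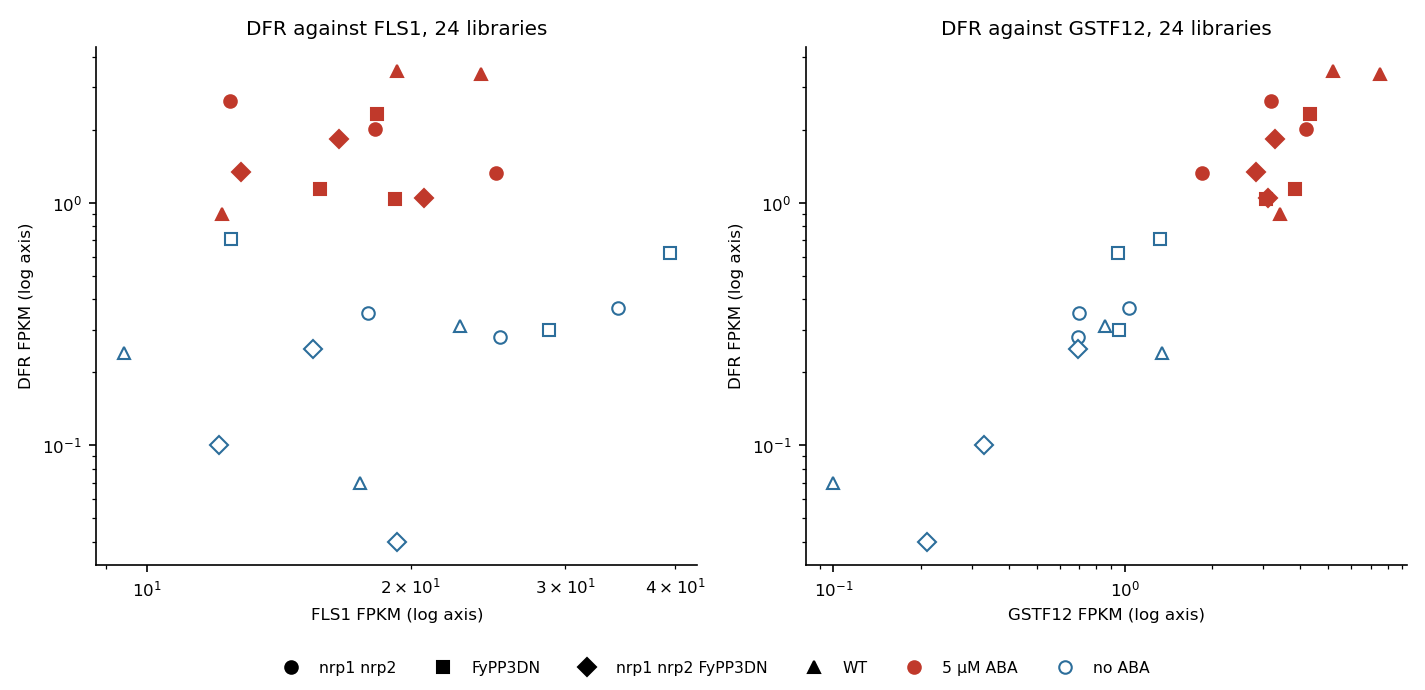
DFR FPKM against FLS1 FPKM (left) and against GSTF12 FPKM (right), both on log axes, in 24 libraries. Symbols give the genotype, filled red with 5 µM ABA and open blue without. Treated libraries lie above untreated ones on the DFR axis in both plots, over one range of FLS1 but at higher GSTF12.

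Beyond the members, the lists of pathway genes were read in the mean ABA response, where 12.8% of all genes were called higher and 11.5% lower, and the median log2 difference of all genes was 0.0016. Anthocyanin decoration and transport had 4 of 8 genes higher and 1 lower, with a median of 0.34. Counts over the lists come from the fit with the filter on low values. Without ABA, 5MAT was too scarce to pass that filter, so it entered the count only through treated libraries. GSTF12, the glutathione transferase that carries anthocyanins to the vacuole, averaged 3.82 ± 1.44 FPKM with ABA and 0.767 ± 0.400 without (SD, n = 12 each), and its 12 treated libraries lay above all untreated ones (log2 1.43 ± 0.13, adjusted p = 3.3e-08). SCPL10, a serine carboxypeptidase-like acyltransferase of this pathway, did the same at 4.72 to 8.18 FPKM with ABA against 0.99 to 3.66 without (1.04 ± 0.11, adjusted p = 4.2e-07). 5MAT, which adds a malonyl group, had 1.35 ± 0.63 FPKM with ABA and 0.268 ± 0.167 without (0.85 ± 0.11, 5.9e-06), and the glucosyltransferase UGT75C1 rose less (0.56 ± 0.09, 3.9e-05). UGT75C1 shares 27.1% of its exon bases and GSTF12 9.85% with genes on the other strand. The coumaroyltransferase A3G-AT2 fell to 6.87 ± 1.08 FPKM with ABA, against 10.95 ± 2.74 without (log2 −0.59 ± 0.07, adjusted p = 1.3e-06). UGT78D2, the glucosyltransferase shared by flavonols and anthocyanins, had 12.2 ± 1.7 and 12.5 ± 3.6 (log2 0.00 ± 0.12).

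Among the other anthocyanin activators, 2 of 6 were called higher and 3 were tested. The bHLH factors EGL3 (4.59 ± 0.85 FPKM with ABA and 2.77 ± 0.49 without, log2 0.57 ± 0.07, adjusted p = 6.4e-06) and GL3 (1.17 ± 0.21 and 0.733 ± 0.263, log2 0.33 ± 0.08, adjusted p = 0.0042) rose, and TTG1 stood at 15.5 ± 1.2 and 16.04 ± 1.5. PAP2, MYB113 and MYB114, the close relatives of PAP1, stayed at 0.38 FPKM or less in every library. These 3 genes resemble PAP1 in sequence and the treatment of reads shared between copies is not given, so the division of reads among them is uncertain.

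The anthocyanin repressors moved mostly the other way in the mean response, with 3 of 6 lower and 1 higher and a median log2 difference of −0.41. Within genotypes, 2 were lower in nrp1 nrp2, 0 in FyPP3DN, 4 in the labelled combination and 3 in WT. Of all genes, 6.02%, 5.95%, 11.4% and 7.70% were called there in either direction. The medians were −0.33, −0.015, −0.71 and −0.44. The response of FyPP3DN minus that of WT was called for 0 of the 6. MYBL2, a small MYB protein that blocks the activator complex, had 32.9 ± 5.8 FPKM with ABA and 56.0 ± 20.1 without (−0.68 ± 0.08, adjusted p = 9.8e-07). LBD38 had 19.3 ± 3.7 and 35.02 ± 5.1 (−0.83 ± 0.09, 7.6e-07) and LBD39 33.5 ± 5.5 and 53.4 ± 7.8 (−0.66 ± 0.06, 5.2e-08). Both are known from nitrogen supply, where they hold PAP1 down. SPL9, which competes with TT8 for PAP1, was higher (8.09 ± 1.12 and 6.13 ± 1.16, log2 0.36 ± 0.08, adjusted p = 0.0014). MYBL2 was the only gene of the pathway lists called between genotypes without ABA. It had 29.3, 36.3 and 33.8 FPKM in untreated FyPP3DN against 65.6, 57.6 and 70.4 in untreated WT (log2 −0.94 ± 0.16, adjusted p = 0.0045), and the groups did not overlap. In the plastid-poor libraries alone that difference had an adjusted p of 0.066, and fitted on these groups alone 0.13.

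**Figure D4:**
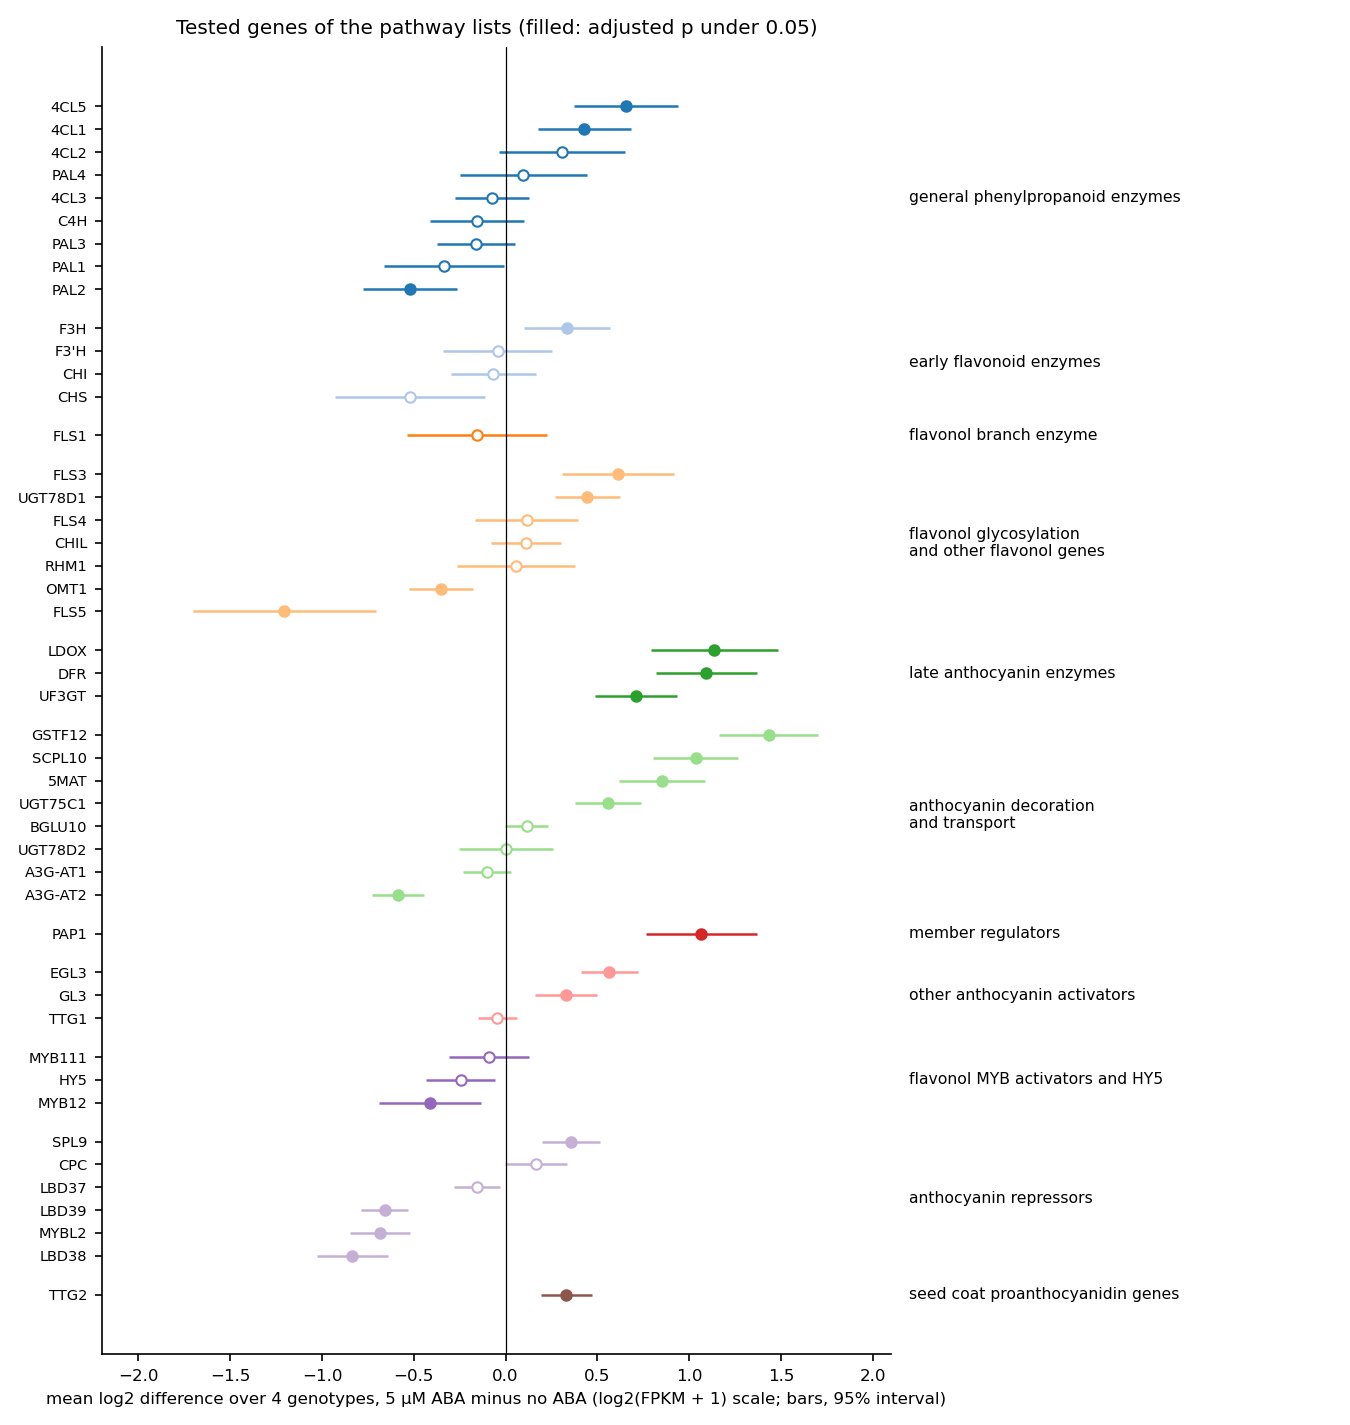
Mean log2 difference over 4 genotypes between 5 µM ABA and no ABA (horizontal axis, log2(FPKM + 1) scale) for the tested genes of each pathway list, with 95% intervals. Filled points have an adjusted p under 0.05. The late enzymes, GSTF12, SCPL10, 5MAT and PAP1 lie at 0.71 to 1.43, LBD38, LBD39 and MYBL2 at −0.83 to −0.66.

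Upstream of CHS, 2 of 9 phenylpropanoid enzymes were higher and 1 was lower, with a median log2 difference of −0.07. The ligases 4CL5 (5.01 ± 1.43 FPKM with ABA and 2.83 ± 1.08 without, log2 0.66 ± 0.14, adjusted p = 0.00094) and 4CL1 (0.43 ± 0.12, 0.012) rose and PAL2, a phenylalanine ammonia-lyase, fell (−0.52 ± 0.12, 0.0032). Of the 11 other flavonol genes 7 were tested, 2 were higher and 2 lower, with a median of 0.11. FLS3 (0.61 ± 0.15, adjusted p = 0.0032) and the rhamnosyltransferase UGT78D1 (0.45 ± 0.08, 0.00041) rose, and FLS5 (−1.21 ± 0.24, 0.00065) and the methyltransferase OMT1 (−0.35 ± 0.08, 0.0031) fell. FLS3 and FLS5 are relatives of FLS1 for which little or no synthase activity is known, and they resemble each other, so the division of reads among them is uncertain too. MYB12 was lower with ABA, at 2.88 ± 0.82 FPKM against 4.17 ± 1.09 without (−0.41 ± 0.13, adjusted p = 0.029), and 10 of 24 fits with 1 library left out lost that call (highest adjusted p = 0.058).

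FLS3 was the only gene of the lists called between genotypes with ABA. It had 4.44, 3.43 and 6.87 FPKM in treated FyPP3DN against 12.6, 15.2 and 13.2 in treated WT, and the groups did not overlap (log2 −1.35 ± 0.29, adjusted p = 0.026). Without ABA it had 5.62 to 8.45 in FyPP3DN and 4.31 to 7.62 in WT. Its ABA response was −0.41 ± 0.29 in FyPP3DN and 1.04 ± 0.29 in WT, and the difference of the responses did not pass (−1.45 ± 0.41, adjusted p = 0.26). The call against WT was lost in the plastid-poor libraries alone (adjusted p = 0.18) and on leaving out any 1 of 5 of the 6 libraries (highest 0.15).

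Genes of the seed coat branch were near 0. TT1 was listed at 0 in every library, the reductase gene BAN was above 0 in 1 library, and TT2 did not exceed 0.13 FPKM. The summed level of the 8 seed coat genes was 2.45 to 3.45 FPKM in treated and 1.68 to 3.19 in untreated libraries, and TTG2, also a trichome gene, was the only one tested (log2 0.33 ± 0.07, adjusted p = 0.00082). Of the tissue markers, 8 photosynthesis genes summed to 37843 to 49241 FPKM with ABA and 34416 to 47805 without, 7 root hair genes to 4.72 to 40.8 and 2.22 to 29.5, and 9 root genes to 33.0 to 72.8 and 30.4 to 78.7. Of these, LHCB2.1 and LHCA1 were higher and RBCS1B lower among 8 photosynthesis genes, WOX5 was higher among 8 root genes tested, and 0 of 7 root hair genes were called by limma (0 at an unadjusted p under 0.05). Their part in the pathway results was not tested.

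The 8 genes outside the members whose levels were most like the mean of the 8 enzymes over 24 libraries were SIAR1 (Pearson r = 0.85), ACLA-2 (0.84), AT1G67750 (0.84), AT5G17990 (0.82), H2AXA (0.82), AT1G30690 (0.82), AT3G57010 (0.82) and CHIL (0.82). The likeness to the mean of the 3 late enzymes alone, chosen after the values were seen, was higher and was led by pathway genes. 5MAT (0.96) and GSTF12 (0.95) came first, also in the 16 plastid-poor libraries (0.96 and 0.97). AT5G47330 (0.91), HPL1 (0.91), AT1G65900 (0.90), AT2G40435 (0.90), CLE41 (0.89) and CYP96A4 (0.89) followed. All 8 were called higher with ABA in the mean response, as were 12.8% of all genes. The late-enzyme profile they were picked by rose with ABA in these same libraries, so these calls follow from the choice and are no separate result. These correlations carry no test, since the libraries share treatment and type.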

How the data were processed

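RNA sequencing libraries of whole seedlings were made after poly(A) selection or Ribo-Zero depletion, per the labels' protocols, which do not say which library had which. The authors deposited 1 FPKM value per gene and library. Trimmomatic 0.30, HISAT2 2.0.1 and the TAIR10 genome are listed, per the submitters' processing notes. No source used here gives the counting tool, its annotation, its strand setting or its treatment of shared reads.

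Each library's depth was recovered from the FPKM of 3549 short single-transcript genes (exons under 400 bases), where 99.8% to 100% of values came out as whole fragments within 0.1. It was 16.6 to 29.1 M fragments (median 19.3), and fragment counts behind low values follow from it. They cover counting error only. No count test was run.

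FPKM was transformed to log2(FPKM + 1). Genes with at least 1 FPKM in at least 3 libraries were kept (19500, and 26593 without this filter). Limma 3.58.1 in R 4.3.3 fitted 8 group means to 24 libraries with a trended variance, with Benjamini-Hochberg adjustment over all genes for each of 16 comparisons (threshold 0.05). The script was tested on simulated data. Libraries were called plastid-rich above 5% plastid-encoded FPKM. Alternatives were a pseudocount of 0.1, no filter, median-of-ratios scaling, quantile normalization, fitting only the groups compared, blocks for library type or replicate number, plastid-poor libraries alone, and leaving out each library.

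Replicate numbers of the labels were checked for pairing. Deviations from group means of same-numbered libraries correlated over 0.1 in every pair of the ABA comparisons in WT (0.49 to 0.73), nrp1 nrp2 (0.19 to 0.83) and the labelled combination (0.54 to 0.82). In FyPP3DN they ran from −0.59 to 0.63. Its plastid-rich untreated library is replicate 2, and that of every other group is replicate 1.

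Named genes were the members, up to 3 called genes per pathway list with the smallest adjusted p, others of the activator, repressor, decoration and flavonol lists that a sentence turns on, the 8 genes most like the 8 enzymes, and the genes the lines are named for. Members and lists were chosen with earlier results of these data known. Of the gene identifiers, 32548 matched the RefSeq table of TAIR10.1, from which promoters and exon overlaps were read with Python 3.11.15, pandas 2.3.3 and Biopython 1.88. Figures were drawn with matplotlib 3.10.9.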

Additional observations from a re-analysis of the deposited data

How the results depend on the processing

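In the mean ABA response, DFR, LDOX, UF3GT and PAP1 were called under every alternative run. No member called in the fit described above changed its direction under them, whereas some differences that were not called did. FLS1 in WT, for example, had a log2 difference of 0.18 over all libraries and −0.21 in the plastid-poor ones. Counts of members called changed within genotypes. In nrp1 nrp2 it was 3 with library type as a block and 0 in the plastid-poor libraries (1 of 9 in the fit described above), and 0 to 4 with 1 left out. In FyPP3DN it was 1 with library type as a block (0 in the fit described above) and 0 to 1 with 1 left out. In the labelled combination it was 2 after quantile normalization, 3 without the filter and 1 in the plastid-poor libraries (4 in the fit described above), and 1 to 3 with 1 left out. In WT it was 2 in the plastid-poor libraries alone and 3 when only the WT groups were fitted, where LDOX had an adjusted p of 0.064 (4 in the fit described above), and 2 to 4 with 1 library left out. The mean response gave 4 to 6. The genotype comparisons and the differences of response gave 0 to 0. The plastid-poor fits hold 2 libraries a group in place of 3; otherwise the cause was not tested.

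With the replicate number as a block, the count in FyPP3DN was 1 (LDOX, log2 1.08, adjusted p = 0.040), where the numbers did not pair the libraries, and no other count moved by over 1.5 times.

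Depth limits the low genes most: untreated libraries held 0 to 19 fragments of DFR, UF3GT and PAP1, so fold changes against them are imprecise.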
